A study of Mus musculus with 30 samples.

Results

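The DNA replication genes are a set of 42 genes named by symbol, which encode the proteins that license, unwind, copy and repackage DNA in S phase. Of these, 40 were found among the 39676 gene identifiers of the counts, and all 40 averaged at least 10 counts per tumor, as did 15926 genes in all. Mcm4 and Pola2 were not found among the identifiers and were not analysed here. The counts come from bulk RNA-seq of 30 whole tumors grown from B16 cells, a mouse melanoma line, with 10 tumors each of B16-GFP, B16-IFNA4 and B16-IFNA9, all taken 8 days after engraftment. The B16-IFNA4 and B16-IFNA9 lines secrete the mouse type I interferons IFNα4 and IFNα9 from a retroviral vector in which the viral long terminal repeat drives the interferon and, after an internal ribosome entry site, enhanced GFP. The B16-GFP line carries the vector without an interferon, and all 3 lines also carry herpes simplex virus glycoprotein B and firefly luciferase. The hosts were female C57BL/6 mice, inoculated under the skin, and their age is not in the labels, while the study's methods give only a typical range for its mice. The interferon is thus made by the tumor cells without regulation by the host. Ifna4 counts ran from 81 to 188 in B16-IFNA4 tumors and Ifna9 counts from 55 to 148 in B16-IFNA9 tumors, and both genes were at 0 in all tumors of the other types.

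Replication starts at origins that are bound by the origin recognition complex. Cdc6 and Cdt1 then load the ring-shaped MCM2-7 helicase, and the Dbf4-dependent kinase Cdc7, Mcm10, Cdc45 and the GINS complex turn the loaded ring into an active helicase. DNA polymerase α with primase makes the primers, polymerases δ and ε extend them on the sliding clamp PCNA, and Fen1 and Lig1 join the fragments of the lagging strand. Many of these genes are transcribed in late G1 under E2F transcription factors, and in tumors their transcripts are used as a sign of cycling cells. Type I interferons are known to slow the growth of many cell types in culture. A whole tumor mixes melanoma cells with host cells, so fewer cycling cells and less RNA per cell cannot be told apart in these counts.

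Total counts per tumor ran from 14598517 to 19788383, and differences in depth between tumors were scaled out by TMM. Values are given as CPM, the counts relative to the library total after that scaling. DEGs are genes with an adjusted p under 0.05 in edgeR's quasi-likelihood test of all 30 tumors, with Benjamini-Hochberg adjustment over all 15926 genes. Both comparisons with B16-GFP use the same 10 control tumors. The melanocyte genes Tyr, Tyrp1 and Mitf were detected in every type, at a mean of 9340 CPM for Tyrp1 in B16-GFP tumors.

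The promoters of the MCM genes, Orc1 and Pold3 are shown because the MCM genes and Orc1 were among the members that differed between all types or between both interferon types, while Pold3 was not lower in either. Each sequence covers 170 bases before to 30 bases after the transcription start in RefSeq (GRCm38.p6) and reads 5′ to 3′ on the strand of the gene. Capitals mark the E2F words TTTCCCGC, TTTGGCGC and TTTCGCGC and the CCAAT box on either strand, and words that overlap run together.
Mcm2 (chr6:88898751-88898950, minus strand): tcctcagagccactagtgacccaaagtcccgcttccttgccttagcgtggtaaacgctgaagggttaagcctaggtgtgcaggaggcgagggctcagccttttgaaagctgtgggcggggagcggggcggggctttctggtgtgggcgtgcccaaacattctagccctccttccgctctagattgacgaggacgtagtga
Mcm3 (chr1:20820283-20820482, minus strand): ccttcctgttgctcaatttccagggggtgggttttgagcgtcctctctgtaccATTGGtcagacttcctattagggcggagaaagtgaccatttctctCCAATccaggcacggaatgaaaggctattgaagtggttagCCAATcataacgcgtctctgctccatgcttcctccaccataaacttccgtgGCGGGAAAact
Mcm5 (chr8:75109339-75109538, plus strand): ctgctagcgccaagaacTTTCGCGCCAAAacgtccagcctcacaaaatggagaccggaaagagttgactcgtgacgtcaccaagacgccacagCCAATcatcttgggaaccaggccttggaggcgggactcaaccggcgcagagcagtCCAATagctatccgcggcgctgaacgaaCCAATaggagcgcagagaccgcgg
Mcm6 (chr1:128359676-128359875, minus strand): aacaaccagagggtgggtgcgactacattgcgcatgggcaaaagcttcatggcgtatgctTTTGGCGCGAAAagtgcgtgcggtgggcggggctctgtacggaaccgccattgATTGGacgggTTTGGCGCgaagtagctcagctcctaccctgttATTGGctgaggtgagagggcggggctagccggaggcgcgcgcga
Mcm7 (chr5:138171854-138172053, minus strand): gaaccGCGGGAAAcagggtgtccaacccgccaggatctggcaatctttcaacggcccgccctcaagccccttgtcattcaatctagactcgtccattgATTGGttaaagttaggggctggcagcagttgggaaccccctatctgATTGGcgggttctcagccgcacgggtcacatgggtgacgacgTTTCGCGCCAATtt
Orc1 (chr4:108579284-108579483, plus strand): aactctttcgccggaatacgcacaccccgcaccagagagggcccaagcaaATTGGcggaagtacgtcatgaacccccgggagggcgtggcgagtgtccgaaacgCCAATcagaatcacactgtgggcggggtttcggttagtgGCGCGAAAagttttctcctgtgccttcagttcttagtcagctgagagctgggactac
Pold3 (chr7:100121473-100121672, minus strand): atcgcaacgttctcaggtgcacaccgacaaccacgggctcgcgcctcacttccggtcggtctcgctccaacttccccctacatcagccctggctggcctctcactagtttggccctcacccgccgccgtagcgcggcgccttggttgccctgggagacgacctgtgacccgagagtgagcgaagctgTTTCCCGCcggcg

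Promoter windows of 300 bases, from 250 before to 50 after the start, were given for 34 of the 40 members and not for Gins1, Gins2, Gins4, Prim2, Pole and Rfc2. These 34 members had 40 windows. At least 1 of the 3 E2F words lay in 13 of the 40 windows (32.5%), 1 each in 13 members, against 2.41% of 21263 windows of protein-coding genes. These 13 members were Cdc6, Cdt1, Gins3, Lig1, Mcm3, Mcm5, Mcm6, Mcm7, Orc1, Pola1, Pold1, Pold3 and Rfc3. CCAAT was found in 21 of the 40 windows (52.5%) and in 38.2% of the coding windows. The interferon-stimulated response element (ISRE, on either strand and with any letters in its spacer) was found in 1 of the 40 windows, that of Pold2 (2.5%), and in 3.35% of the coding windows. The cell cycle homology region word TTTGAA was found in 8 of the 40 windows (20%), of 7 members, and in 16% of the coding windows. Only the letters of these motifs were searched for, on both strands, and a match is not a measured binding site. The 13 members with an E2F word had a median log2 fold change of -1.12 in B16-IFNA4 against B16-GFP tumors, and the 21 members with a window but no such word had one of -1.26. Mcm2, whose window held no E2F word, had the largest fall of all members, and Pold3, whose window held 1, did not pass the test there. In B16-IFNA9 tumors the medians with and without a word were -0.63 and -0.73 against B16-GFP, and 0.57 and 0.50 against B16-IFNA4 tumors.

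In B16-IFNA4 tumors, 38 of the 40 members were lower than in B16-GFP tumors and 0 were higher, where 34.1% of all genes tested were lower and 31.3% were higher. No member was higher at an unadjusted p under 0.05 or with DESeq2 either. The median log2 fold change of the members was -1.19, with a range from -1.99 to 0.06, while the median over all genes tested was 0.01. For 31 members every B16-IFNA4 tumor lay below every B16-GFP tumor, which held for 10.0% of all genes. The members that did not pass were Cdc7 and Pold3. Every role group held members that fell, with group medians from -0.97 for the polymerases and primase to -1.60 for nucleotide supply, and the members' CPM summed to 2920 ± 845 (SD, n = 10) for B16-GFP and 1290 ± 59.8 (SD, n = 10) for B16-IFNA4 tumors.

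In B16-IFNA9 tumors the members were lower than in B16-GFP tumors as well, but by less. There 34 of 40 were lower and 2, Cdc7 and Pold3, were higher, against 28.9% lower and 26.9% higher among all genes. Orc1, Pola1, Pole and Rfc1 did not pass. The median log2 fold change was -0.69, with a range from -1.35 to 0.28, and for 8 members every B16-IFNA9 tumor lay below every B16-GFP tumor, as it did for 3.35% of all genes. Their CPM summed to 1830 ± 216 (SD, n = 10).

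The direct comparison of the interferon types placed B16-IFNA9 above B16-IFNA4. The log2 fold change was above 0 for all 40 members, 28 passed the test as higher and 0 as lower, while 10.5% of all genes were higher and 7.25% were lower. No member was lower at an unadjusted p under 0.05 or with DESeq2. The median log2 fold change was 0.50, from 0.07 to 1.12, and for 15 members, against 2.08% of all genes, every B16-IFNA9 tumor lay above every B16-IFNA4 tumor. For 37 of 40 members the median CPM was highest in B16-GFP, lower in B16-IFNA9 and lowest in B16-IFNA4 tumors, and for Rpa1, Tyms and Chaf1b no tumor of one type reached into the range of another.

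**Figure D1:**
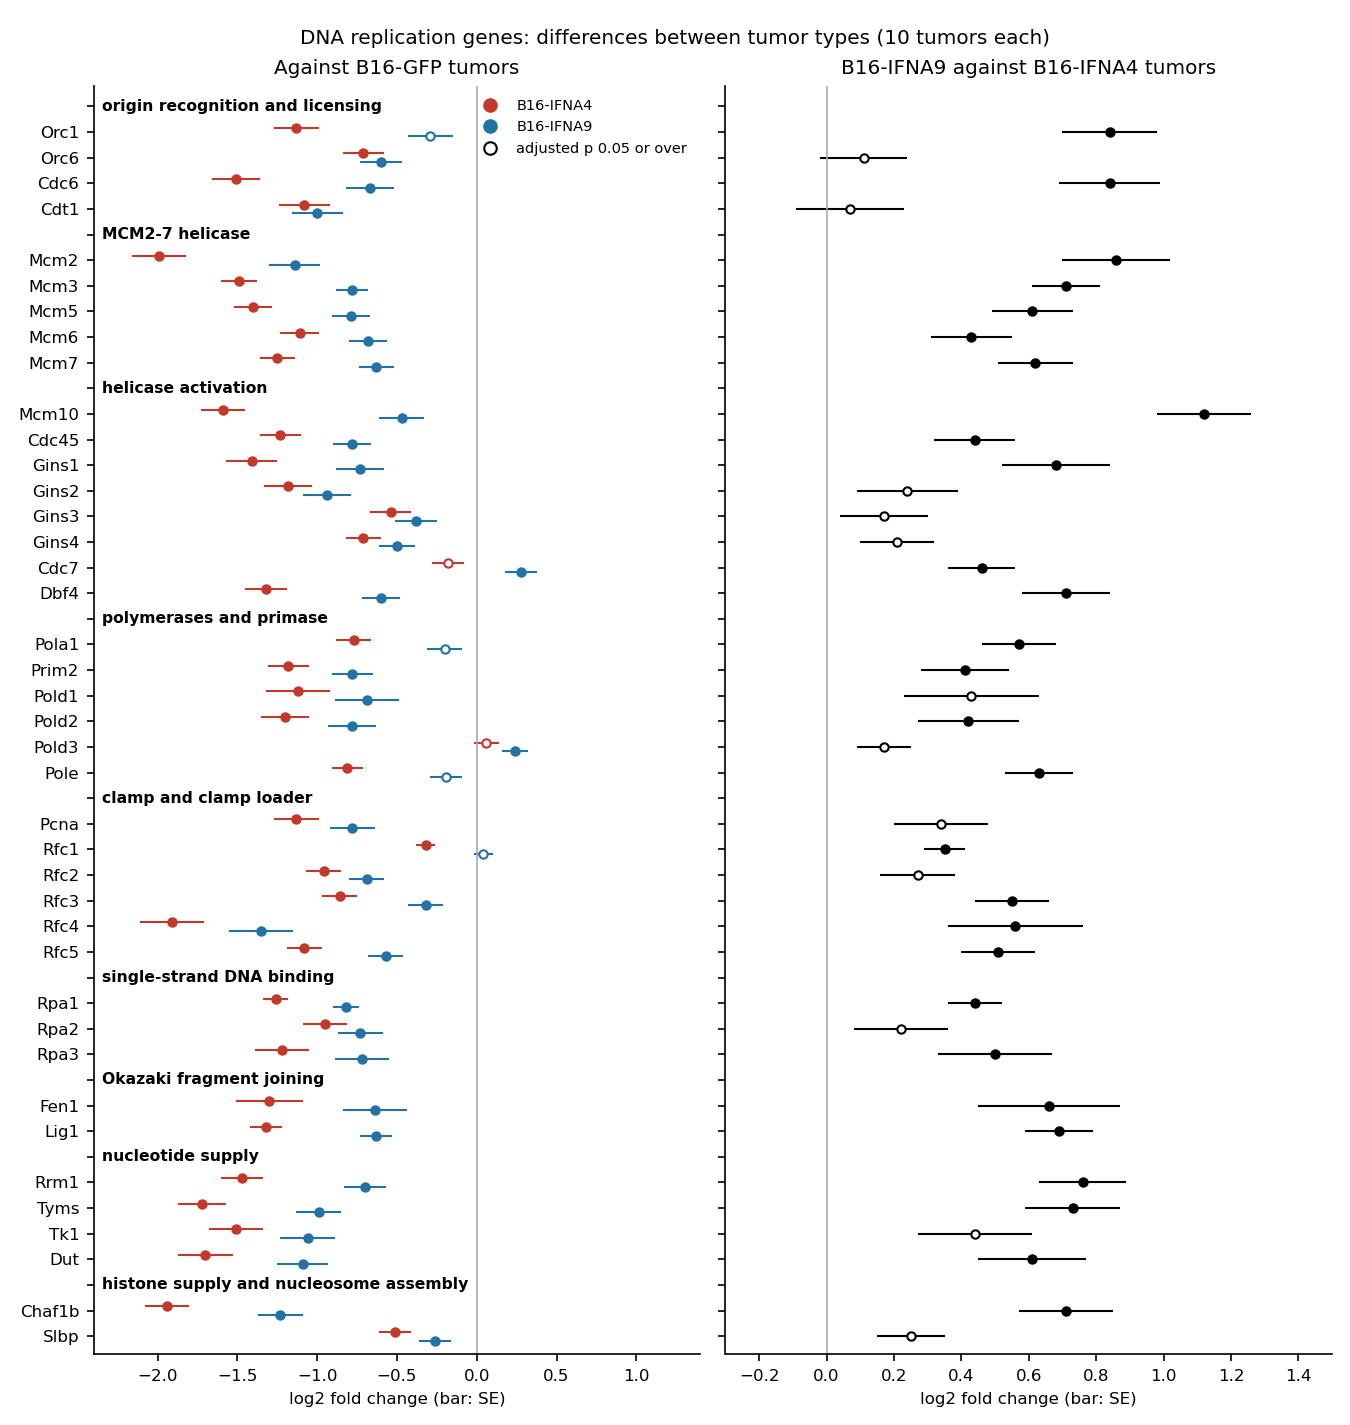
Log2 fold change of each of the 40 members, with its standard error, for B16-IFNA4 and B16-IFNA9 against B16-GFP tumors on the left and for B16-IFNA9 against B16-IFNA4 tumors on the right. Filled points have an adjusted p under 0.05. On the left, 38 red and 34 blue filled points lie below 0, and on the right all 40 points lie above 0.

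The origin recognition and licensing genes fell together in B16-IFNA4 tumors, with all 4 lower, where 34.1% of all genes were. Cdc6, the ATPase that helps to load the helicase, ran from 22.4 to 60.2 CPM (median 31.3) in B16-GFP, from 7.66 to 15.4 CPM (median 12.1) in B16-IFNA4 and from 15.1 to 34.6 CPM (median 20.6) in B16-IFNA9 tumors. All B16-IFNA4 tumors lay below all B16-GFP tumors, with a log2 fold change of -1.51 ± 0.15 (SE, adjusted p = 1.15e-09), the largest fall of this group. Orc6, the smallest of its changes, ran from 31.8 to 80.8 CPM (median 39.7) in B16-GFP, from 21.3 to 31.6 CPM (median 25.2) in B16-IFNA4 and from 21.7 to 31.6 CPM (median 28.9) in B16-IFNA9 tumors. Both interferon types lay below every B16-GFP tumor and overlapped each other, with log2 fold changes of -0.71 and -0.60 against B16-GFP tumors and 0.11 ± 0.13 between the interferon types (adjusted p = 0.616). Cdt1, the other loading factor, fell by 1.08 and 1.00 on the log2 scale against B16-GFP tumors and differed by 0.07 between the interferon types (95% interval -0.25 to 0.40).

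Orc1, the ATPase subunit of the origin recognition complex that is made anew in each cycle, was lower in B16-IFNA4 tumors, and in B16-IFNA9 tumors it did not pass against B16-GFP tumors. It ran from 6.05 to 13.9 CPM (median 9.23) in B16-GFP, from 3.66 to 5.21 CPM (median 4.20) in B16-IFNA4 and from 5.51 to 12.2 CPM (median 7.35) in B16-IFNA9 tumors. The B16-IFNA4 tumors lay below all others. Against B16-GFP tumors, Orc1 fell by 1.13 on the log2 scale in B16-IFNA4 tumors (adjusted p = 4.09e-08), while in B16-IFNA9 tumors the difference was -0.29 ± 0.14 (adjusted p = 0.0667, 95% interval -0.57 to -0.01). It passed without B16-GFP tumor 5 (-0.35, adjusted p = 0.0249) and without B16-IFNA9 tumor 10 (-0.39, adjusted p = 0.0101). The difference between the interferon types was 0.84 ± 0.14 (adjusted p = 7.11e-05).

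The MCM2-7 helicase is a hexamer of 6 related subunits, of which 5 were measured. All 5 were lower in both interferon types than in B16-GFP tumors, where 34.1% of all genes were in B16-IFNA4 and 28.9% in B16-IFNA9 tumors. All 5 were higher in B16-IFNA9 than in B16-IFNA4 tumors, where 10.5% of all genes were. Mcm2 ran from 117 to 427 CPM (median 187) in B16-GFP, from 41.2 to 60.1 CPM (median 51.7) in B16-IFNA4 and from 69.9 to 147 CPM (median 82.5) in B16-IFNA9 tumors. Its log2 fold change of -1.99 ± 0.17 in B16-IFNA4 tumors (adjusted p = 2.09e-11), a 3.98-fold fall, was the largest of all members. Mcm6, the subunit that changed least in B16-IFNA4 against B16-GFP tumors, ran from 153 to 419 CPM (median 202), from 93.7 to 111 CPM (median 102) and from 110 to 163 CPM (median 139) in the same order of types, with a log2 fold change of -1.11 ± 0.12 in B16-IFNA4 against B16-GFP tumors (adjusted p = 3.73e-09). Its B16-IFNA4 tumors lay below all B16-GFP tumors, and its B16-IFNA9 tumors overlapped both.

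Mcm3 and Mcm7 were among the 8 members with the lowest adjusted p between the interferon types. Mcm3 ran from 96.0 to 202 CPM (median 128) in B16-GFP, from 42.8 to 55.8 CPM (median 48.1) in B16-IFNA4 and from 57.5 to 102 CPM (median 74.5) in B16-IFNA9 tumors. Mcm7 ran from 83.0 to 198 CPM (median 107), from 41.2 to 56.1 CPM (median 50.1) and from 65.2 to 90.9 CPM (median 73.9). For both genes every B16-IFNA9 tumor lay above every B16-IFNA4 tumor, with differences of 0.71 ± 0.10 (adjusted p = 1.54e-05) for Mcm3 and 0.62 ± 0.11 (adjusted p = 1.54e-04) for Mcm7. Of the exon sequence of Mcm7, 18.1% was shared with other genes, mainly Gm5487, over stretches of 50 bases, so some of its reads could not be assigned to 1 gene.

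Since the subunits are built into the ring in equal number, their levels were also set beside each other per kb of exon. The length joins all annotated exons of a gene, such as 6956 bases for Mcm2 and 3993 for Mcm5. The order of the genes and the size of a ratio thus depend on the annotation, and the fold difference of a ratio between types does not. In B16-GFP tumors Mcm6 had the highest level of the 5, at a mean of 47.3 CPM per kb, and Mcm5 the lowest, at 25.2 CPM per kb. In B16-IFNA4 tumors Mcm6 stood at 21.9 and Mcm2 was the lowest at 7.42 CPM per kb. The ratio of Mcm2 to Mcm6 per kb ran from 0.515 to 0.689 in B16-GFP, from 0.276 to 0.407 in B16-IFNA4 and from 0.372 to 0.705 in B16-IFNA9 tumors, so that it was lower in every B16-IFNA4 than in every B16-GFP tumor. The ratios of Mcm3, Mcm5 and Mcm7 to Mcm6 overlapped between these types, with medians of 0.807, 0.553 and 0.577 in B16-GFP and 0.575, 0.445 and 0.503 in B16-IFNA4 tumors.

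Among the 8 helicase activation genes, 7 (87.5%) were lower in B16-IFNA4 and 7 in B16-IFNA9 tumors than in B16-GFP tumors, where 34.1% and 28.9% of all genes were. The other gene, Cdc7, did not pass in B16-IFNA4 and was higher in B16-IFNA9 tumors. Mcm10, which is needed to start unwinding, had the largest difference of all members between the interferon types. It ran from 26.4 to 73.4 CPM (median 40.2) in B16-GFP, from 12 to 17.1 CPM (median 14.4) in B16-IFNA4 and from 20.4 to 46.0 CPM (median 28.8) in B16-IFNA9 tumors. The B16-IFNA4 tumors lay below all others, with a log2 fold change of -1.59 ± 0.14 against B16-GFP tumors (adjusted p = 6.06e-11), and B16-IFNA9 exceeded B16-IFNA4 tumors by 1.12 ± 0.14 (adjusted p = 1.51e-06). Against B16-GFP tumors the fall in B16-IFNA9 tumors was 0.47 on the log2 scale (adjusted p = 0.00475).

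The kinase Cdc7 and its activating partner Dbf4, which together phosphorylate the loaded helicase, did not move together. Cdc7 ran from 15.4 to 27 CPM (median 20) in B16-GFP, from 13.8 to 21.7 CPM (median 16.9) in B16-IFNA4 and from 20.5 to 30.3 CPM (median 23.7) in B16-IFNA9 tumors, and all 3 ranges overlapped. Its log2 fold change was -0.18 ± 0.10 in B16-IFNA4 (adjusted p = 0.113, 95% interval -0.38 to 0.02) and 0.28 ± 0.10 in B16-IFNA9 tumors against B16-GFP (adjusted p = 0.0165). Dbf4 ran from 51.7 to 116 CPM (median 61.1), from 21.5 to 34.8 CPM (median 27.8) and from 35.6 to 65.4 CPM (median 43.9) in the same order. The B16-IFNA4 tumors lay below all others for Dbf4, with log2 fold changes of -1.32 ± 0.13 for B16-IFNA4 and -0.60 ± 0.12 for B16-IFNA9 against B16-GFP tumors, and the interferon types differed by 0.71 ± 0.13 (adjusted p = 1.50e-04). The ratio of Cdc7 to Dbf4 per kb had a median of 0.651 in B16-GFP, 1.29 in B16-IFNA4 and 1.14 in B16-IFNA9 tumors. Its highest value in a B16-GFP tumor, 0.755, lay below its lowest in either interferon type, 1.11 and 0.934.

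Cdc45 and the 4 subunits of the GINS complex, which complete the active helicase, were lower in both interferon types, with log2 fold changes from -1.41 for Gins1 to -0.54 for Gins3 in B16-IFNA4 tumors. Between the interferon types Cdc45 and Gins1 passed the test, and Gins2, Gins3 and Gins4 had differences from 0.17 to 0.24 that did not. Of the exons of Gins2, 67.3% overlap Gse1 on the opposite strand, and the strand setting of the counting is not given in the sources used here, so its values are uncertain. Without B16-GFP tumor 7, Gins3 no longer passed in B16-IFNA9 against B16-GFP tumors (-0.29, adjusted p = 0.0518), and Gins4 passed between the interferon types (0.20, adjusted p = 0.0469).

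Of the 6 polymerase and primase genes measured, 5 (83.3%, all genes 34.1%) were lower in B16-IFNA4 tumors. In B16-IFNA9 tumors 3 (50%, all genes 28.9%) were lower and 1 (16.7%, all genes 26.9%) was higher. Pold2, the second subunit of polymerase δ, had the largest change of the group. It ran from 16.5 to 48.9 CPM (median 34.2) in B16-GFP, from 9.18 to 18.0 CPM (median 14.0) in B16-IFNA4 and from 15.6 to 24.5 CPM (median 18.1) in B16-IFNA9 tumors. Neighbouring ranges overlapped, with log2 fold changes of -1.2 ± 0.15 in B16-IFNA4 (adjusted p = 4.69e-08) and -0.78 ± 0.15 in B16-IFNA9 tumors (adjusted p = 5.61e-05). The catalytic subunit Pold1 changed alike, by -1.12 ± 0.20 and -0.69 ± 0.20.

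Pold3, an accessory subunit of polymerase δ that also serves polymerase ζ in translesion synthesis, did not fall. It ran from 40.3 to 62.6 CPM (median 51.4) in B16-GFP, from 47.0 to 71.3 CPM (median 54.2) in B16-IFNA4 and from 53.8 to 72.6 CPM (median 60.8) in B16-IFNA9 tumors, and the 3 ranges overlapped. The log2 fold change was 0.06 ± 0.08 in B16-IFNA4 (adjusted p = 0.472, 95% interval -0.09 to 0.22) and 0.24 ± 0.08 in B16-IFNA9 tumors (adjusted p = 0.00885). The ratio of Pold3 to Pold1 per kb had a median of 2.49 in B16-GFP, 5.09 in B16-IFNA4 and 5.05 in B16-IFNA9 tumors, with overlap between the types.

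Pole, the catalytic subunit of polymerase ε on the leading strand, was lower in B16-IFNA4 tumors alone among the tests against B16-GFP. It ran from 25.4 to 43.5 CPM (median 29.5) in B16-GFP, from 16.2 to 21.5 CPM (median 18.4) in B16-IFNA4 and from 24.8 to 34.9 CPM (median 27.8) in B16-IFNA9 tumors. The B16-IFNA4 tumors lay below all others, by 0.81 ± 0.10 on the log2 scale against B16-GFP tumors (adjusted p = 5.17e-08), and the interferon types differed by 0.63 ± 0.10 (adjusted p = 5.33e-05). In B16-IFNA9 against B16-GFP tumors the difference was -0.19 ± 0.10 (adjusted p = 0.112, 95% interval -0.39 to 0.02). Pola1, the catalytic subunit of polymerase α, had values of -0.77, -0.20 (adjusted p = 0.141) and 0.57 in the 3 comparisons, and the primase subunit Prim2 had -1.18, -0.78 and 0.41, all 3 past the test.

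**Figure D2:**
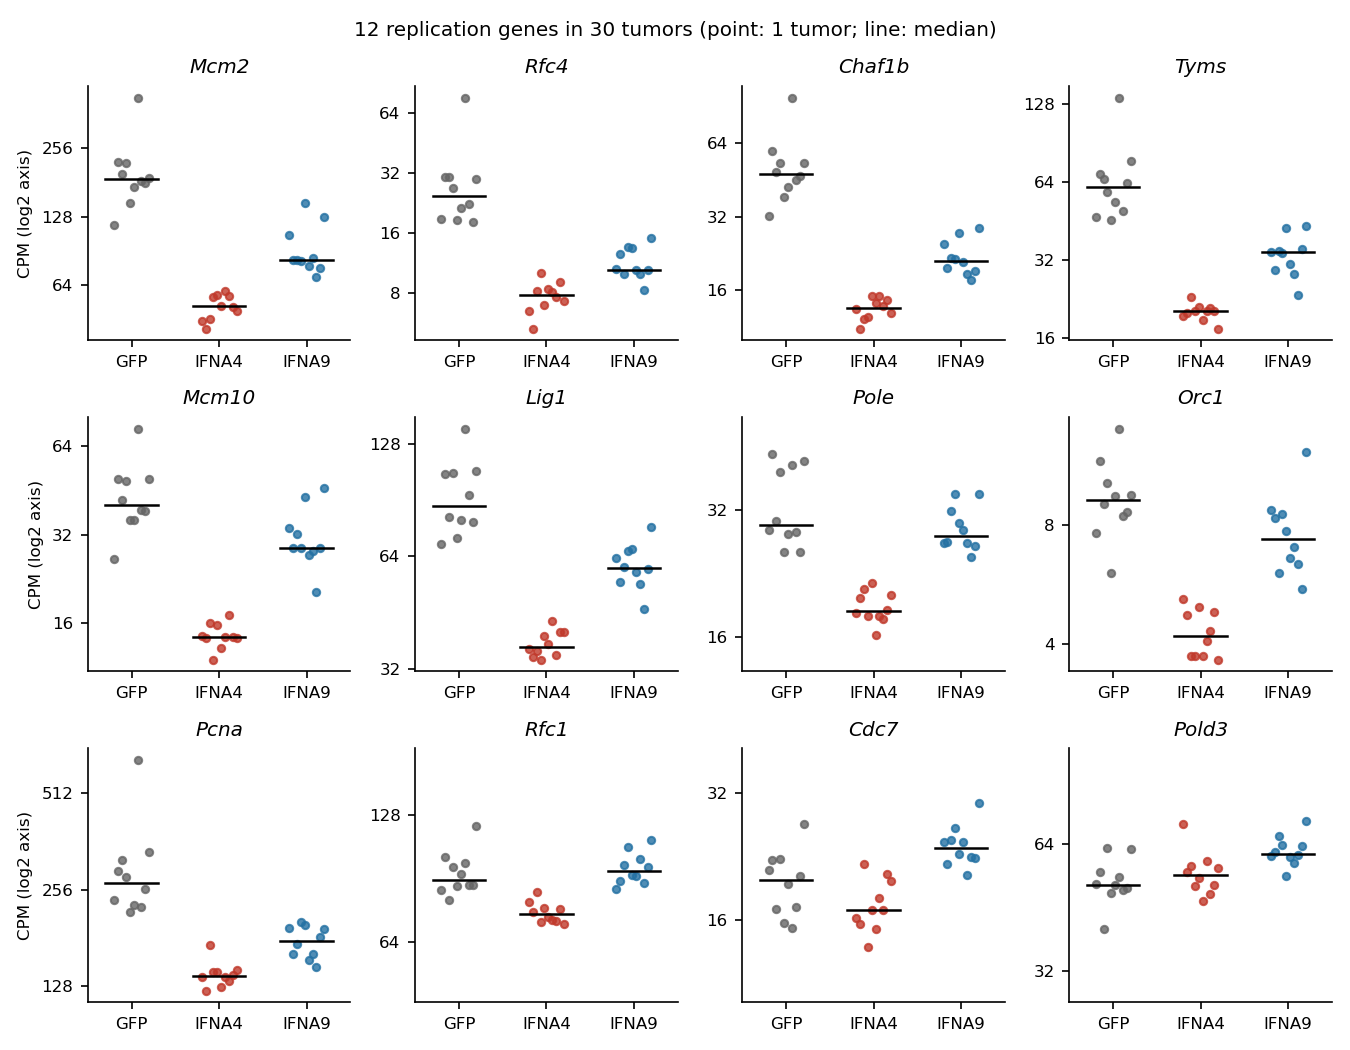
CPM on a log2 axis in each of the 30 tumors for 12 members, with 1 point per tumor and a line at the median of its type. In B16-IFNA4 against B16-GFP tumors Mcm2, Rfc4, Chaf1b and Tyms fell the most of the 40 members and Rfc1, Cdc7 and Pold3 changed least, and Mcm10, Lig1, Pole and Orc1 differed between the interferon types. B16-GFP tumor 7 is the highest grey point in all panels but those of Pole, Rfc1, Cdc7 and Pold3.

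PCNA is the ring that holds polymerases on DNA, and replication factor C, with the subunits Rfc1 to Rfc5, loads it. All 6 genes were lower in B16-IFNA4 tumors, where 34.1% of all genes were, and 5 of 6 (83.3%, all genes 28.9%) were lower in B16-IFNA9 tumors. Pcna, named here after its values were seen, had a log2 fold change of -1.13 ± 0.14 in B16-IFNA4 and -0.78 ± 0.14 in B16-IFNA9 tumors, and both types lay below every B16-GFP tumor. Of its exon sequence 19.1% was shared with other genes, mainly Pcna-ps2, so its level is uncertain. The exons of Rfc2, Rfc4, Rfc5 and Orc1 overlap other genes on the opposite strand over 10.7% to 15.1% of their length.

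Rfc4 changed the most in this group. It ran from 18.3 to 76.3 CPM (median 24.6) in B16-GFP, from 5.31 to 10.1 CPM (median 7.88) in B16-IFNA4 and from 8.32 to 15.1 CPM (median 10.5) in B16-IFNA9 tumors. Every tumor of both interferon types lay below every B16-GFP tumor, with log2 fold changes of -1.91 ± 0.20 (adjusted p = 1.85e-09) and -1.35 ± 0.20 (adjusted p = 1.45e-06). Rfc1, the large subunit, ran from 80.2 to 120 CPM (median 89.9), from 70.4 to 84.0 CPM (median 74.3) and from 85.2 to 111 CPM (median 94.3) in the same order. It was lower in B16-IFNA4 tumors by only 0.32 ± 0.06 (adjusted p = 9.78e-05), with overlapping tumors, and its difference in B16-IFNA9 tumors was 0.04 ± 0.06 (adjusted p = 0.644, 95% interval -0.10 to 0.17). The ratio of Rfc1 to Rfc4 per kb ran from 0.329 to 1.21 in B16-GFP, from 1.79 to 3.62 in B16-IFNA4 and from 1.75 to 2.70 in B16-IFNA9 tumors, so that both interferon types lay above all B16-GFP tumors. Rfc2, Rfc3 and Rfc5 lay between these extremes, with log2 fold changes from -1.08 to -0.86 in B16-IFNA4 and from -0.69 to -0.32 in B16-IFNA9 tumors. The ratios of Rfc1 to Rfc2 and of Rfc1 to Rfc3 per kb overlapped between B16-GFP and each interferon type, and that of Rfc1 to Rfc5 did not. Without B16-GFP tumor 7, Rfc3 no longer passed in B16-IFNA9 against B16-GFP tumors (-0.19, adjusted p = 0.0767).

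**Figure D3:**
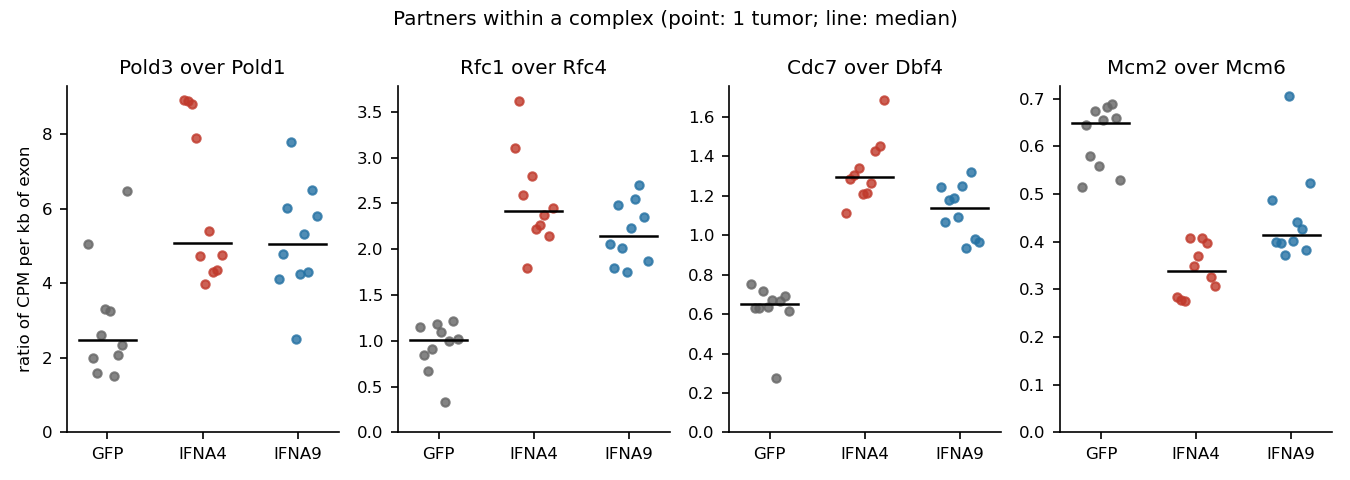
Ratio of the levels (CPM per kb of exon) of 2 genes whose proteins work in 1 complex, with 1 point per tumor and a line at the median of its type. The pairs were chosen after their values were seen. Rfc1 over Rfc4 and Cdc7 over Dbf4 were higher in every interferon tumor than in every B16-GFP tumor, and Mcm2 over Mcm6 was lower in every B16-IFNA4 than in every B16-GFP tumor.

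Replication protein A is the trimer that coats single-stranded DNA. The genes of all 3 subunits were lower in both interferon types, where 34.1% of all genes were in B16-IFNA4 and 28.9% in B16-IFNA9 tumors. Rpa1, the large subunit, ran from 146 to 257 CPM (median 183) in B16-GFP, from 72.8 to 85.4 CPM (median 78.0) in B16-IFNA4 and from 90.1 to 134 CPM (median 103) in B16-IFNA9 tumors. No 2 types overlapped, with differences of -1.26 ± 0.08, -0.82 ± 0.08 and, between the interferon types, 0.44 ± 0.08 (adjusted p = 3.62e-04). Rpa2 ran from 16.8 to 45.7 CPM (median 23.3), from 10.1 to 16.5 CPM (median 12.9) and from 11.4 to 20.9 CPM (median 14.8). It fell by 0.95 and 0.73 on the log2 scale against B16-GFP tumors, and the interferon types overlapped and differed by 0.22 ± 0.14 (adjusted p = 0.311).

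Lig1, the ligase that seals Okazaki fragments, ran from 69.0 to 140 CPM (median 87.4) in B16-GFP, from 33.8 to 42.9 CPM (median 36.6) in B16-IFNA4 and from 46.3 to 76.8 CPM (median 59.3) in B16-IFNA9 tumors. The B16-IFNA4 tumors lay below all others, with a log2 fold change of -1.32 ± 0.10 (adjusted p = 5.60e-12), and the interferon types differed by 0.69 ± 0.10 (adjusted p = 1.96e-05). Fen1, the flap nuclease that trims the fragments, had few counts, a mean of 18.1 per tumor. It ran from 0.940 to 3.30 CPM (median 1.39) in B16-GFP, from 0.434 to 0.864 CPM (median 0.612) in B16-IFNA4 and from 0.673 to 1.83 CPM (median 0.964) in B16-IFNA9 tumors. Its log2 fold changes of -1.30 ± 0.21 and -0.64 ± 0.20 passed the test, but 84.2% of its exons overlap Tmem258 or Gm10143 on the opposite strand, so its level is uncertain.

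The nucleotide supply genes fell the most as a group, with a median log2 fold change of -1.60 over 4 genes in B16-IFNA4 and -1.02 in B16-IFNA9 tumors. All 4 were lower in both, where 34.1% and 28.9% of all genes were. Tyms, which makes thymidylate, ran from 45.7 to 135 CPM (median 60.9) in B16-GFP, from 17.3 to 23.1 CPM (median 20.3) in B16-IFNA4 and from 23.3 to 43.3 CPM (median 34.2) in B16-IFNA9 tumors. The 3 types did not overlap, with a 3.29-fold fall in B16-IFNA4 tumors (log2 fold change -1.72 ± 0.15, adjusted p = 2.91e-11). Rrm1, the large subunit of ribonucleotide reductase, ran from 233 to 536 CPM (median 276), from 101 to 138 CPM (median 110) and from 131 to 281 CPM (median 184). The B16-IFNA4 tumors lay below all B16-GFP tumors, by 1.47 ± 0.13 on the log2 scale, and B16-IFNA9 exceeded B16-IFNA4 tumors by 0.76 ± 0.13 (adjusted p = 1.01e-04) with some overlap. Dut, which removes dUTP, and Tk1, the thymidine kinase of S phase, fell by 1.7 and 1.51 on the log2 scale in B16-IFNA4 tumors.

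The last group holds 2 genes that couple replication to chromatin. Chaf1b, a subunit of the assembly factor that places histones on new DNA, ran from 32.2 to 98.5 CPM (median 47.7) in B16-GFP, from 11.1 to 15.1 CPM (median 13.5) in B16-IFNA4 and from 17.6 to 28.6 CPM (median 21.1) in B16-IFNA9 tumors. The 3 types did not overlap, with log2 fold changes of -1.94 ± 0.14 (adjusted p = 6.46e-13) and -1.23 ± 0.14 (adjusted p = 1.23e-08) against B16-GFP and 0.71 ± 0.14 between the interferon types. Slbp, which binds the stem-loop of histone mRNAs, ran from 59.1 to 114 CPM (median 70.5), from 45.4 to 70.3 CPM (median 50.7) and from 50.8 to 73.3 CPM (median 62.3). All 3 ranges overlapped, and its log2 fold changes were -0.51 ± 0.10 (adjusted p = 6.38e-05) in B16-IFNA4 and -0.26 ± 0.10 (adjusted p = 0.0279) in B16-IFNA9 tumors. The latter passed in 24 of the 30 fits that leave out 1 tumor, and not without B16-GFP tumor 7 or 10 or B16-IFNA9 tumor 1, 5, 6 or 8 (adjusted p from 0.0549 to 0.105, the highest without B16-GFP tumor 7, at -0.17).

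Between the interferon types 12 members did not pass, namely Orc6, Cdt1, Gins2, Gins3, Gins4, Pold1, Pold3, Pcna, Rfc2, Rpa2, Tk1 and Slbp. Their log2 fold changes ran from 0.07 to 0.44, and the upper end of the 95% interval reached 0.85 for Pold1, so a difference as large as that of Orc1 (0.84) lies within it. Of the other 28, 23 also passed against B16-GFP tumors in both comparisons and thus held an intermediate level in B16-IFNA9 tumors. Orc1, Pola1, Pole and Rfc1 passed in both comparisons with B16-IFNA4 tumors but not between B16-IFNA9 and B16-GFP tumors. In an edgeR fit of the B16-IFNA4 and B16-IFNA9 tumors alone, 33 members were higher in B16-IFNA9 tumors. Of the 12 named above, Pcna (adjusted p = 9.64e-04), Rfc2 (0.0113), Tk1 (0.0128), Gins4 (0.0213) and Slbp (0.0354) passed in that fit.

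The spread between tumors also differed by type. The coefficient of variation of the members had a median of 29.9% in B16-GFP, 11.95% in B16-IFNA4 and 14.95% in B16-IFNA9 tumors, and for all 40 members the SD of log2 CPM was smaller in B16-IFNA4 than in B16-GFP tumors. These values include B16-GFP tumor 7. The spread was not computed over all genes, so it cannot be called particular to the members. Much of the B16-GFP spread came from tumor 7, the highest B16-GFP tumor for 36 of 40 members, with a summed level of 5120 CPM against 2153 to 3147 CPM in the other 9. As a share of all counts, without TMM, the members took 0.393% in tumor 7 against 0.236% to 0.313% in the other 9, a narrower gap, and its TMM factor of 0.768 was the lowest of the 30 tumors. Without tumor 7 the median coefficient of variation in B16-GFP tumors was 17.6%, and 38 members were still lower in B16-IFNA4 and 31 in B16-IFNA9 tumors than in B16-GFP tumors, and 33 were higher in B16-IFNA9 than in B16-IFNA4 tumors. Among B16-IFNA9 tumors, tumor 10 was the highest for 25 members and tumor 8 the lowest for 22.

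**Figure D4:**
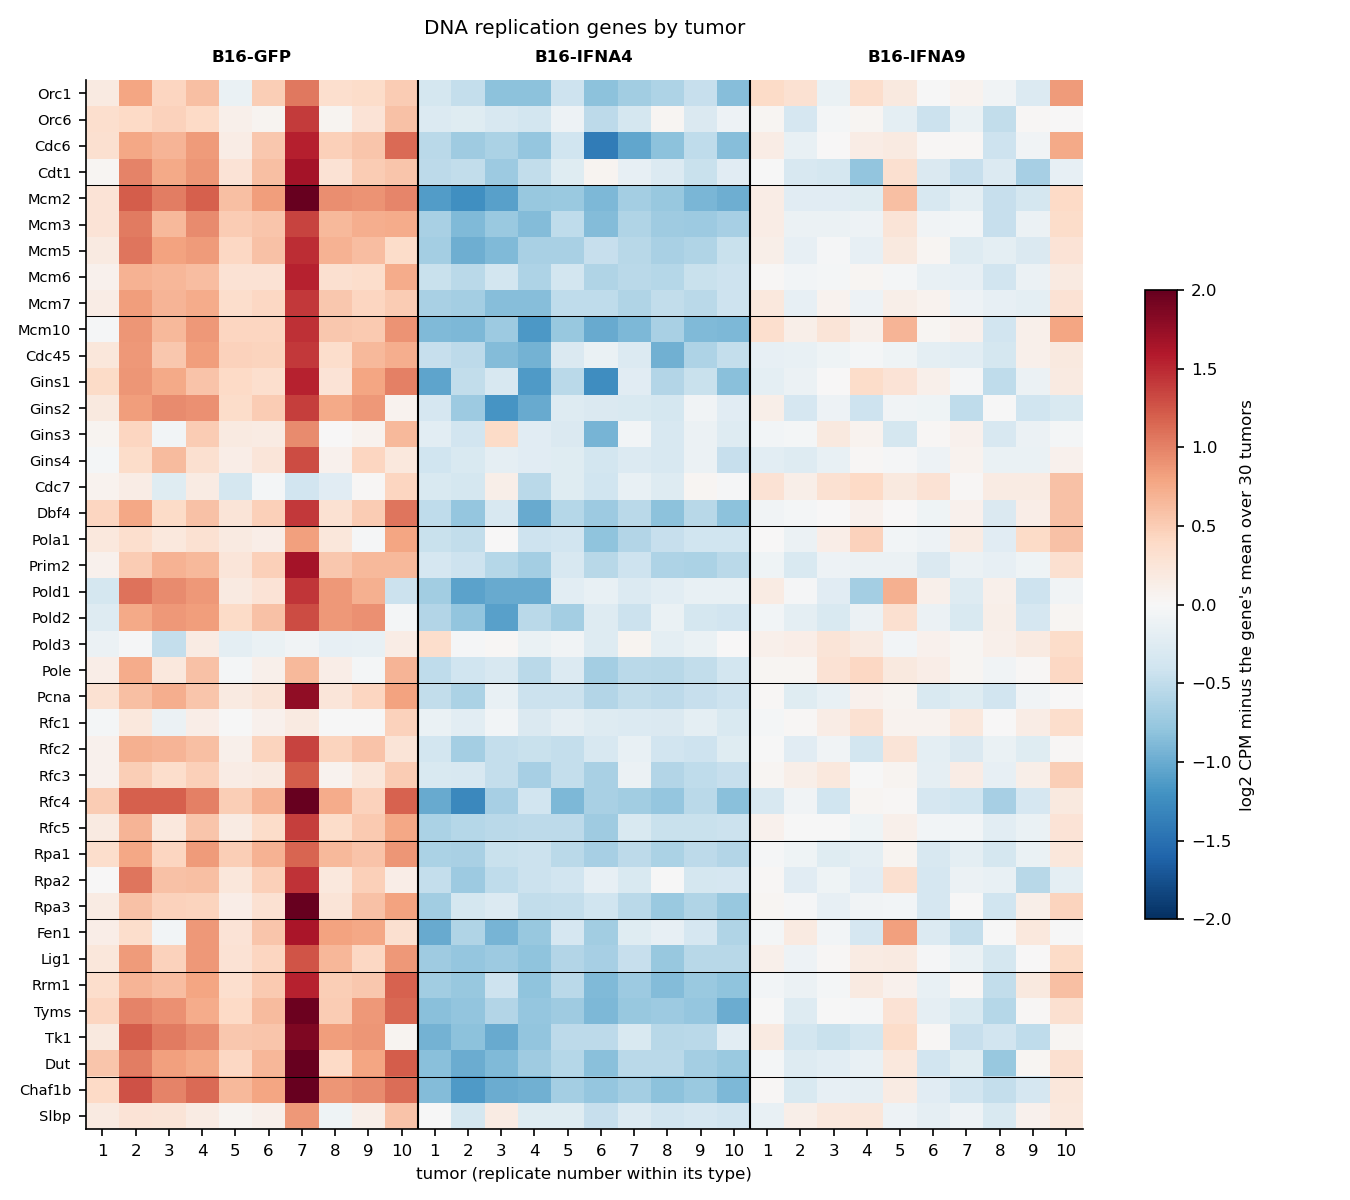
Log2 CPM of the 40 members minus each gene's mean over all 30 tumors, with tumors in columns by type and replicate number and genes in rows by role. The B16-IFNA4 columns are the lowest for most genes, B16-GFP tumor 7 stands out as the highest for 36 of 40 members, and the Cdc7 and Pold3 rows do not follow the rest.

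Melanocyte and leukocyte markers differed between the tumor types as well, and so did some markers of other tissues. The mean summed level of 11 melanocyte markers was 12700 CPM (8500 to 28100) in B16-GFP, 3580 CPM (2710 to 4340) in B16-IFNA4 and 5820 CPM (3970 to 10200) in B16-IFNA9 tumors, and 10 of the 11 (90.9%) were lower in each interferon type, against 34.1% of all genes in B16-IFNA4 and 28.9% in B16-IFNA9 tumors, with none at 0. The summed level of 9 leukocyte markers was 850 CPM (394 to 1140), 2400 CPM (1580 to 3310) and 1830 CPM (1140 to 2240), with 9 of 9 higher in both, against 31.3% and 26.9% of all genes. The 11 T and NK cell markers summed to 26.3 CPM (8.93 to 69.4), 189 CPM (116 to 270) and 132 CPM (76.9 to 210). Keratinocyte markers, of skin, summed to 4240 CPM (828 to 6560), 7290 CPM (6020 to 9200) and 5830 CPM (1820 to 7750), with 4 of 5 (80%) higher in B16-IFNA4 tumors, where 31.3% of all genes were, and 2 of 5 (40%) in B16-IFNA9 tumors, near the 26.9% of all genes. Endothelial markers summed to 299, 291 and 167 CPM, which hides members that went opposite ways in B16-IFNA4 tumors. There 3 of 5 (60%, all genes 34.1%) were lower and 1 (20%, all genes 31.3%), Kdr (1.35), was higher. In B16-IFNA9 tumors 3 of 5 (60%, all genes 28.9%) were lower. Macrophage and monocyte markers summed to 1430, 1930 and 1820 CPM, with 3 of 8 (37.5%) higher in each interferon type, where 31.3% and 26.9% of all genes were. In B16-IFNA4 tumors 2 of 8 (25%, all genes 34.1%) were lower. The log2 fold changes of these 8 markers ran up to 3.24 for Ly6c2 but had medians of -0.32 in B16-IFNA4 and -0.04 in B16-IFNA9 tumors. Fibroblast markers summed to 8660, 9020 and 9120 CPM, with 2 of 5 (40%) and 1 of 5 (20%) higher, where 31.3% and 26.9% of all genes were. Skeletal muscle markers summed to 6660, 7890 and 3850 CPM, with 2 of 5 (40%, all genes 28.9%) lower in B16-IFNA9 tumors. No muscle marker passed the test in B16-IFNA4 tumors, where their unadjusted p ran from 0.156 for Myh4 to 0.911 for Acta1 by edgeR. B16-GFP tumor 7, with the highest members, also had the highest melanocyte sum of all 30 tumors, the lowest leukocyte sum, and the lowest keratinocyte (828 CPM) and fibroblast (2840 CPM) sums of its type. B16-IFNA9 tumor 10 had a melanocyte sum of 10240 CPM, within the range of B16-GFP tumors, and a member sum of 2295 CPM, also within their range. The share of melanoma cells was not measured, and the part of these markers in the differences of the replication genes was not tested.

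**Figure D5:**
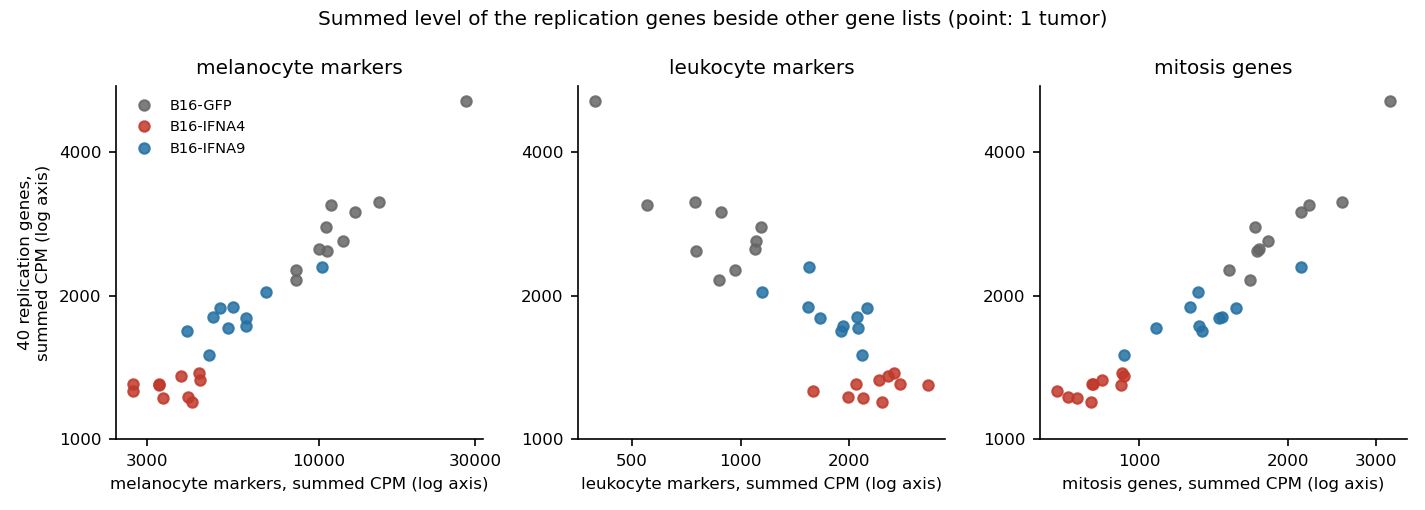
Summed CPM of the 40 replication genes in each tumor against the summed CPM of 11 melanocyte markers, 9 leukocyte markers and 21 mitosis genes, all on log axes, with 1 point per tumor. B16-IFNA4 tumors hold the lowest replication sums, from 1200 to 1370 CPM, with low melanocyte and high leukocyte sums, and B16-GFP tumor 7 lies apart at 5120 CPM. All points of a panel share their libraries and their scaling.

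Other genes of the pathway followed a similar course, with exceptions. Of 38 further replication genes tested, 34 (89.5%, all genes 34.1%) were lower and 1 (2.63%, all genes 31.3%), the MCM-binding protein Mcmbp (0.14), was higher in B16-IFNA4 than in B16-GFP tumors, with a median log2 fold change of -0.78. In B16-IFNA9 tumors 23 (60.5%, all genes 28.9%) were lower and 2 (5.26%, all genes 26.9%), Mcmbp (0.15) and Rif1 (0.36), were higher. Rrm2, the small subunit of ribonucleotide reductase, ran from 256 to 654 CPM (median 296) in B16-GFP, from 55.0 to 75.4 CPM (median 64.6) in B16-IFNA4 and from 67.1 to 188 CPM (median 114) in B16-IFNA9 tumors, and both interferon types lay below all B16-GFP tumors. Its log2 fold change in B16-IFNA4 tumors was -2.4 ± 0.16 (adjusted p = 9.86e-14), and that of the PCNA partner Pclaf was -1.85 ± 0.16. The replication checkpoint list had 10 of 13 genes (76.9%, all genes 34.1%) lower and 0 higher in B16-IFNA4 tumors by edgeR, among them the exonuclease Exo1 (-1.55). In B16-IFNA9 tumors 6 of these 13 (46.2%) were lower, where 28.9% of all genes were.

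Regulators of entry into S phase were more often lower than higher. In B16-IFNA4 tumors 17 of 27 (63.0%) were lower, where 34.1% of all genes were, and 5 (18.5%) were higher, where 31.3% of all genes were. Among the lower were Mybl2 (-1.68 ± 0.15), Ccna2 (-1.67 ± 0.15), E2f1 (-1 ± 0.13) and Myc (-0.60 ± 0.10). E2f1 ran from 21.2 to 58.4 CPM in B16-GFP, from 12.4 to 21.4 CPM in B16-IFNA4 and from 18.8 to 27.9 CPM in B16-IFNA9 tumors, and the interferon types overlapped and differed by 0.37 ± 0.13 (adjusted p = 0.0473). The 5 that were higher were Rbl2 (0.64), Cdk6 (0.63), Ccnd1 (0.35), Rb1 (0.34) and E2f4 (0.33), of which Rbl2, Rb1 and E2f4 belong to the repressive pocket protein complexes and Ccnd1 and Cdk6 to the kinases that inactivate these. Other genes of the pocket protein complexes were lower, among them Rbl1 (-0.23, adjusted p = 0.0416), E2f5 (-0.59, adjusted p = 7.97e-05) and Lin9 (-0.73, adjusted p = 2.02e-06). Cdk4, the other such kinase, was lower by 1.31 ± 0.11 on the log2 scale (adjusted p = 3.64e-11), with every B16-IFNA4 tumor below every B16-GFP tumor, and Ccnd2 (0.02) and Ccnd3 (0.17) did not pass. In B16-IFNA9 tumors 14 of 27 (51.9%) were lower and 4 (14.8%) were higher, against 28.9% and 26.9% of all genes. Of 5 CDK inhibitors 1 was higher and 2 were lower in B16-IFNA4 tumors, 20% and 40%, near the 31.3% and 34.1% of all genes. Cdkn1a, which encodes p21, was higher in B16-IFNA4 tumors by 0.19 ± 0.08 (adjusted p = 0.0328), and Cdkn2c (-0.57) and Cdkn2d (-0.52) were lower. Cdkn1a ran from 242 to 354 CPM in B16-GFP, from 295 to 397 CPM in B16-IFNA4 and from 249 to 419 CPM in B16-IFNA9 tumors, and the types overlapped.

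Among 19 nucleotide pool genes, 14 (73.7%) were lower and 3 (15.8%) were higher in each interferon type than in B16-GFP tumors, against 34.1% lower and 31.3% higher among all genes in B16-IFNA4 and 28.9% and 26.9% in B16-IFNA9 tumors. The 3 in B16-IFNA4 tumors were Samhd1, Dck and Tk2. Samhd1, an interferon-induced hydrolase that degrades dNTPs, ran from 101 to 231 CPM (median 191) in B16-GFP, from 530 to 995 CPM (median 764) in B16-IFNA4 and from 314 to 841 CPM (median 598) in B16-IFNA9 tumors. Every interferon tumor lay above every B16-GFP tumor, with log2 fold changes of 2.02 ± 0.15 (adjusted p = 2.95e-12) and 1.72 ± 0.15 (adjusted p = 1.62e-10), and the interferon types did not pass against each other (-0.30 ± 0.15, adjusted p = 0.172). Samhd1 is also expressed by myeloid cells. The leukocyte sums given above were higher in the same tumors, while the macrophage and monocyte markers had median log2 fold changes of -0.32 in B16-IFNA4 and -0.04 in B16-IFNA9 tumors. The part of host cells in the Samhd1 difference was not tested.

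Mitosis genes, which act after replication is complete, gave the nearest comparison. All 21 tested were lower in B16-IFNA4 than in B16-GFP tumors, where 34.1% of all genes were, with a median log2 fold change of -1.66, against -1.19 for the replication genes, and in B16-IFNA9 tumors 16 (76.2%, all genes 28.9%) were lower with a median of -0.59, against -0.69. Between the interferon types 19 (90.5%, all genes 10.5%) were higher, with a median of 0.82, against 0.50. These medians are a description and were not tested against each other. The mitotic kinase Cdk1 had a log2 fold change of -2.12 ± 0.18 and its cyclin Ccnb1 one of -2.01 ± 0.18 in B16-IFNA4 tumors.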

How the data were processed

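Bulk RNA-seq was performed on whole B16-GFP, B16-IFNA4 and B16-IFNA9 tumors, 10 per type, grouped by their labels. Per the labels, the authors made stranded mRNA libraries, read 50 bases from 1 end, aligned these with HISAT2 2.0.4 after FastQC 0.11.3, and deposited whole-number counts per gene without normalization. The labels name mm10 and the methods another build, and the annotation release, the strand setting of the counting and the treatment of reads that align to several places are not given in the sources used here. Gene names, exon lengths and overlaps were taken from GENCODE M21 (GRCm38), which held 39495 of 39676 identifiers.

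Genes averaging at least 10 counts over the 30 tumors were kept, libraries were scaled by TMM, and the types were compared in 1 quasi-likelihood fit in edgeR 4.0.16 (R 4.3.3), with Benjamini-Hochberg adjustment and a threshold of 0.05. The F statistic of each fold change gave its standard error, and log2 CPM took a prior count of 2. Total counts ran from 14598517 to 19788383, and a count of 0 allows up to 3 counts, for counting error only. The fit was tested on simulated counts. Plots were drawn with Python 3.11.15 and matplotlib 3.10.9.

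The members, the role groups and the other gene lists were chosen with earlier results of these data known. Values by tumor are given for the members with the largest and smallest change in each role group, the 8 with the lowest adjusted p between the interferon types and those against the common direction. Of the other lists, the 2 genes with the largest change per list and Cdkn1a, Samhd1, E2f1 and Myc are named. A gene that this rule takes is not reported here. Other genes were named after their values were seen. Alternatives were DESeq2 1.42.0 or its size factors, library totals, other filters, fits of 2 types, a required 1.5-fold change, the replicate number as a block and leaving out each tumor.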

Additional observations from a re-analysis of the deposited data

Results flagged for a closer look

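The log2 CPM of each member, and the mean over the members, was examined within each type for a tumor that stands apart, meaning that its gap to the nearest other tumor exceeds Dixon's 95% critical value for 10 samples as a share of the range of the type. Of 123 such groups 20 had one, where chance gives about 1 in 20, or 6.15. The genes of a tumor share its library and are not independent.

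B16-GFP tumor 7 was the highest of 10 and stood apart for 13 members, given as log2 CPM with the next highest tumor: Orc6 (6.34, next 5.54), Mcm2 (8.74, next 7.80), Mcm6 (8.71, next 7.91), Gins4 (6.01, next 5.34), Prim2 (6.59, next 5.62), Pcna (9.35, next 8.39), Rfc2 (6.99, next 6.35), Rfc3 (5.94, next 5.24), Rfc4 (6.26, next 4.94), Rfc5 (6.19, next 5.58), Rpa3 (6.72, next 5.53), Tyms (7.08, next 6.27) and Dut (7.28, next 6.34). The mean log2 CPM of all members was 6.29 there, with the next tumor at 5.66. The same tumor had the highest melanocyte sum and the lowest leukocyte sum of its type.

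B16-IFNA9 tumor 10 was the highest and stood apart for Cdc6 (5.12, next 4.53), Dbf4 (6.03, next 5.59) and Prim2 (5.25, next 4.85). B16-IFNA4 tumor 3 stood apart for Pola1 (5.15, next 4.76) and Pcna (7.43, next 7.17), and B16-IFNA4 tumor 1 for Pold3 (6.16, next 5.87).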

How the results depend on the processing

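The 38 lower members in B16-IFNA4 against B16-GFP tumors were 38 with DESeq2, with either other scaling, with either other filter, with the fit of 2 types and without any single tumor, and their median log2 fold change ran from -1.27 to -1.05 when 1 tumor was left out. Requiring a change of at least 1.5-fold left 32, where 1731 of all 15926 genes were lower. Under that requirement, B16-IFNA9 against B16-GFP tumors had 9 lower and 0 higher members in place of 34 and 2. Of all 15926 genes, 782 were lower and 1142 were higher there. B16-IFNA9 against B16-IFNA4 tumors had 1 higher member, Mcm10, in place of 28, and 114 higher genes of all 15926. Leaving out each tumor gave 31 to 35 lower and 2 higher members in B16-IFNA9 against B16-GFP tumors (median -0.73 to -0.55), and 24 to 33 higher members between the interferon types (median 0.46 to 0.55). No member changed sign in these fits. Library totals in place of TMM raised the median of all genes in B16-IFNA9 against B16-GFP tumors to 0.10 and the share of higher among called genes from 48.2% to 58.3%, with 31 lower members and none turned. Between the interferon types, Pold2 and Rfc4 passed in 17 of 30 fits without 1 tumor, Rpa3 in 22, Fen1 in 27 and Prim2 in 29. With the replicate block, Pold2 no longer passed between the interferon types (adjusted p = 0.057), which left 27 higher members, and 38 and 34 were lower as before. Tumors with the same replicate number did not deviate together (correlations from -0.267 to 0.302, with 3 of 30 tumors closest to their own number), so the number was not taken as a pairing. Antisense overlap limits Fen1 and Gins2, sequence shared with other genes limits Pcna and Mcm7, and the mean of 18.1 counts also limits Fen1. The cause of these changes was not tested.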
